A study of Mus musculus with 4 samples.

Results

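The 33 genes described here make cholesterol and fatty acids, control that synthesis, or store and move the sterol made. They were taken as a list of gene symbols by known role, with no threshold on a measured value, and all 33 were among the 14806 genes tested. By their step, 19 encode enzymes of cholesterol synthesis, 5 are regulators of that synthesis, 6 encode enzymes of fatty acid synthesis and 3 handle sterol once it is made. They were measured in RNA of cells sorted from colonic crypts of adult mice with normal colon. The mice carried the Lgr5_EGFP-ires-CreERT2 knockin, in which the Lgr5 promoter drives GFP. One population was sorted as GFP positive (labelled Lgr5-GFP) and the other as CD24hi with a PE-conjugated antibody to CD24, which the design text describes as a subset of goblet cells. Both populations came from the same kind of knockin mice, and GFP marks cells only as far as the Lgr5 promoter is active in them.

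Cells build cholesterol from acetyl-CoA through mevalonate, isoprenoid units and squalene, and then reshape lanosterol in a chain of reductions, oxidations and isomerizations. When sterol in the endoplasmic reticulum is low, Scap escorts the SREBP transcription factors, encoded by Srebf1 and Srebf2, to the Golgi for cleavage, and the released factors switch on the genes of synthesis, while Insig proteins hold Scap back when sterol is plentiful. Fatty acid synthesis starts from the same cytosolic acetyl-CoA, and in the intestine both pathways supply membranes of new epithelial cells.

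Each array compared RNA under the Lgr5-GFP label with RNA under the CD24hi label in 2 dyes, and each of 2 replicates was run on a first array and on a dye swap. No label ties the replicates to different animals, so a p-value here reflects only how far these samples spread, possibly for technical reasons, and replicate and slide cannot be told apart. The sort markers went against the labels. Lgr5 itself was 10.6-fold lower under the Lgr5-GFP label, with a mean log2 ratio of -3.41 ± 0.29 (SD, n = 2), and Cd24a was 4.35-fold higher under it, at 2.12 ± 0.30 (SD, n = 2, adjusted p of 0.000617 and 0.000772, limma). The size of the Lgr5 fold is uncertain, as its probe was well above background under the Lgr5-GFP label on 2 of the 3 arrays with a value. Every direction below follows the labels' dyes, as the Lgr5-GFP label over the CD24hi label, and would turn if the labels were exchanged. Markers of cell types moved with the groups as well: 7 of 10 goblet cell markers were higher (median log2 ratio of the list 2.70, Muc2 3.76). The goblet markers not called were Tff3, at -0.95, Zg16, at 0.30, and Fcgbp, at 0.097. Lower were 5 of 5 measured stem cell markers (median -2.09) and 8 of 8 markers of dividing cells (median -2.93, Mki67 -3.03). Of 6 markers of absorptive cells, 3 were higher (median 0.50), and of 6 general epithelial markers 5 were not called and 1, Krt8, was lower. Most markers of fat cells, leukocytes and stroma did not pass the filter on dim probes, with 3 of 8, 2 of 7 and 2 of 6 measured. The part of cell makeup in the results below was not tested, and in such bulk RNA fewer cells of a type and less RNA per cell cannot be told apart.

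On the dye swap of replicate 1 the median spot signal was 4377 and 1358 under the Lgr5-GFP and the CD24hi label, against 94.2 to 197 on the other arrays. On that array 75.3% of gene spots were left out for an uneven local background or as outlier spots (0.231% to 0.512% on the other arrays), among them 41 of 67 spots of the genes described here. Values below are given with replicate 1 before replicate 2 and, within each, the first array before the dye swap, and where 3 values are given the dye swap of replicate 1 has none. Across probes the arrays correlated at r = 0.649 to 0.696 with that dye swap and at 0.895 to 0.930 with each other.

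The promoters of 6 of these genes are shown because SREBP acts through sterol regulatory elements near gene starts, usually beside a site for the factor NF-Y. The set holds the 3 cholesterol enzymes with the largest mean ratios, namely Cyp51, Msmo1 and Mvk. Of these, Cyp51 and Mvk have no value on the dye swap of replicate 1. Without that array Lss and Fdft1 stood at 2.13 and 2.11, above Mvk at 1.87. The set also holds Hmgcs1, whose window has the only match to the sterol regulatory element. Insig1 is included as the regulator with the largest ratio, and Abca1 as the only gene called lower. Each runs from 250 bases before to 50 bases after the gene's start (RefSeq, GRCm38.p6). Capitals mark the sterol regulatory element TCACNCCAC and the NF-Y box CCAAT, or ATTGG where the box lies on the other strand. The positions are chr13:119690101-119690400, plus strand for Hmgcs1, chr5:114444019-114444318, plus strand for Mvk, chr5:4104648-4104947, minus strand for Cyp51, chr8:64733529-64733828, minus strand for Msmo1, chr5:28071162-28071461, plus strand for Insig1 and chr4:53159846-53160145, minus strand for Abca1.
Hmgcs1: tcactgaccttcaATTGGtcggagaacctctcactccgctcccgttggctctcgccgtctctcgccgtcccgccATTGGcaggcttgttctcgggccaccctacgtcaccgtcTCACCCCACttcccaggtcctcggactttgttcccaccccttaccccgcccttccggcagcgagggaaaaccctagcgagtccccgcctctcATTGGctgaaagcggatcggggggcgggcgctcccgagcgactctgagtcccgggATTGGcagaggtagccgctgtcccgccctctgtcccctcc
Mvk: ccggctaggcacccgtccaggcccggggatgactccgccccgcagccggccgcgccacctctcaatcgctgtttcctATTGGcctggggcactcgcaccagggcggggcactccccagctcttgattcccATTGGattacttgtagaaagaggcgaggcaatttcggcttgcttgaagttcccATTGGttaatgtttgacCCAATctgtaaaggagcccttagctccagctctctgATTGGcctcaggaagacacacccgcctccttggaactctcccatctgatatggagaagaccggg
Cyp51: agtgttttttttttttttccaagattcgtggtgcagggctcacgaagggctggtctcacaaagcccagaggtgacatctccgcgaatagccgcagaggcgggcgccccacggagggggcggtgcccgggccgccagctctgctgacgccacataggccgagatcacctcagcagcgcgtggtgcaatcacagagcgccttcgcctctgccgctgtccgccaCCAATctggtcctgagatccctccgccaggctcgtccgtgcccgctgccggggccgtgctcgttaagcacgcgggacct
Msmo1: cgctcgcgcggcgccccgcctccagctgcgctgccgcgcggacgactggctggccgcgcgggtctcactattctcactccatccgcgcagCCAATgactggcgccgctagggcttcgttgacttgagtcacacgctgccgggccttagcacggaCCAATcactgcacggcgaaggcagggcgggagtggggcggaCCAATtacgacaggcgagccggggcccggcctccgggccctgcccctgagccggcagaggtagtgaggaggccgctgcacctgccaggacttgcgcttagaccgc
Insig1: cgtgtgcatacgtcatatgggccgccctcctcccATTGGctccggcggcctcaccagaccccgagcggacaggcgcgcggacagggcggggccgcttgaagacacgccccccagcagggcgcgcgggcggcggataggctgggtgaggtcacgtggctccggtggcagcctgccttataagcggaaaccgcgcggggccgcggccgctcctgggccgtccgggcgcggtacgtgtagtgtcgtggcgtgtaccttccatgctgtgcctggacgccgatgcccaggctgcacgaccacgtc
Abca1: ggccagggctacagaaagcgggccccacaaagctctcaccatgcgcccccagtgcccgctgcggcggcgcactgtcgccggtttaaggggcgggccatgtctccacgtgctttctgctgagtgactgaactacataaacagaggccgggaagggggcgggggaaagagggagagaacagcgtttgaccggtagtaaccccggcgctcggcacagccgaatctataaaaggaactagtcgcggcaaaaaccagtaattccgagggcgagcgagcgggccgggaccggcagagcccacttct

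The letters show 4 NF-Y boxes in the Hmgcs1 window, 5 in Mvk, 3 in Msmo1, 1 each in Cyp51 and Insig1, and 0 in Abca1. RefSeq promoters were at hand for 27 of the 33 genes, as 35 windows. CCAAT, on either strand, stood in 23 of those 35 windows (65.7%), against 37.4% of 32851 promoters of the genome and 37.9% of those of the genes tested. By step it stood in the windows of 15 of 16 cholesterol enzymes, 4 of 5 regulators, 2 of 4 fatty acid enzymes and 1 of 2 sterol handling genes. The sterol regulatory element stood in 1 of 35 windows (2.86%, against 1.24% of all promoters), the E-box CACGTG in 7 (20.0%, against 7.15% of all promoters and 9.71% of those of the genes tested) and the GC box GGGCGG in 26 (74.3%, against 35.7% of all promoters and 59.9% of those of the genes tested). Each motif was searched for on both strands and counted without regard to overlap with another. A match is a run of letters and says nothing of binding, and a missing match says only that these letters are not in this window.

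Genes of cholesterol synthesis were higher under the Lgr5-GFP label at most steps. Of the 33 genes, 21 were called higher and 1 lower at an adjusted p under 0.05 (limma, Benjamini-Hochberg over all genes tested), where 47.2% of all genes tested were called, 21.7% higher and 25.5% lower. Of the 19 cholesterol enzymes, 15 were higher, 0 were lower and 4 were not called, and their median log2 ratio was 1.24, against -0.07 over all genes tested. That median was 0.77 in replicate 1 and 1.52 in replicate 2, and each of the 19 had a ratio above 0 in both replicates and a larger one in replicate 2. Replicate 1 includes its dye swap wherever that array gave a value. By array, the medians were 1.24, 0.43, 1.45 and 1.45. Between the 2 first arrays alone, Ggps1, Sqle, Sc5d and Dhcr7 had the larger ratio in replicate 1. The 3 fatty acid enzymes called were higher as well, out of 6, and the regulators gave 2 of 5. Without the first array of replicate 1, 9 of the 23 that kept a value were called higher, beside 500 of 6024 genes tested. Without that replicate's dye swap the count was 26 of 33, beside 3987 of 14806. The difference between the groups of steps was not tested.

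**Figure D1:**
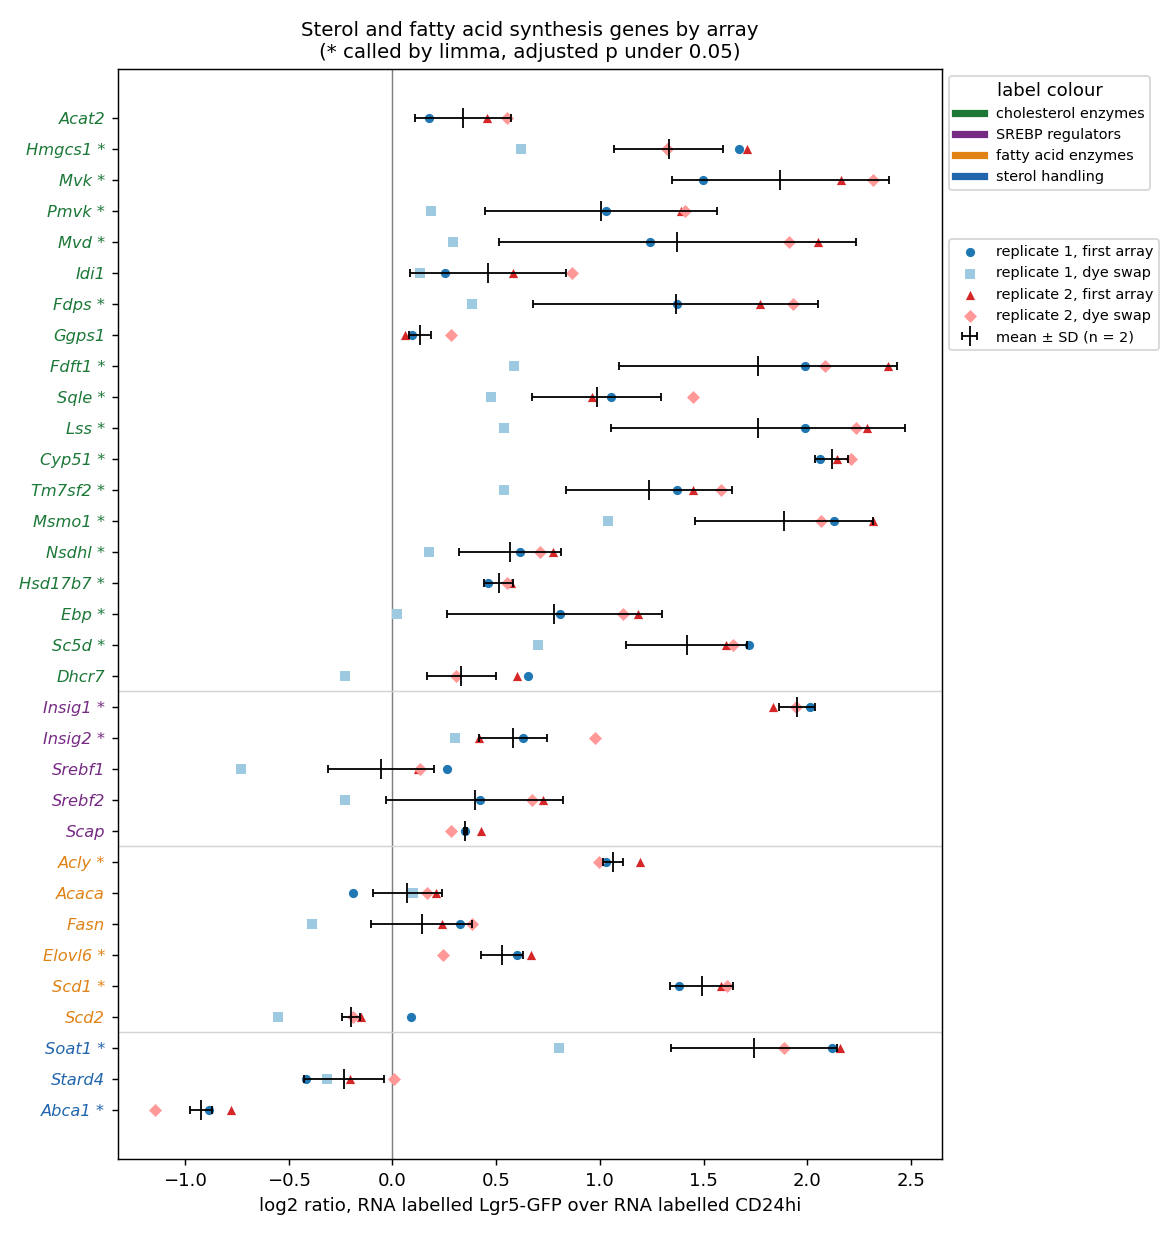
Log2 ratios of the 33 genes (horizontal axis, Lgr5-GFP label over CD24hi label) on each array, in pathway order, with the black mark and bar giving the mean and SD of 2 replicates and the asterisk a call by limma. The means of the cholesterol enzymes lie to the right of 0, from 0.13 to 2.12, and the pale squares of the dye swap of replicate 1 lie to the left of the other symbols in 20 of the 22 genes with 4 values.

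The mevalonate and prenyl steps, from acetyl-CoA to the isoprenoid building blocks, held 5 genes called higher out of 8, with a median log2 ratio of 1.17. Hmgcs1, which joins acetyl-CoA to acetoacetyl-CoA at the head of the mevalonate route, had log2 ratios of 1.67, 0.62, 1.71 and 1.33 on the 4 arrays. It was 2.52-fold higher under the Lgr5-GFP label, at 1.33 ± 0.26 (SD, n = 2) with an adjusted p of 0.00180 (limma). All 4 arrays put it higher, with the dye swap of replicate 1 the lowest. Mvk, the kinase that adds the first phosphate to mevalonate, had ratios of 1.50, 2.16 and 2.32 on 3 arrays. Its mean was 1.87 ± 0.52 (SD, n = 2), a 3.66-fold difference (adjusted p = 0.00171, limma), the largest of these 8 steps. Its probe is aligned at chr5:114905993-114908940 of build mm9, plus strand, over a stretch longer than the 60-base probe, so that it spans at least 1 intron.

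The next kinase, Pmvk, and the decarboxylase, Mvd, had an SD between replicates of 0.56 and 0.86, beside 0.52 for Mvk. Unlike them, Mvk has no value on the dye swap of replicate 1. On the 2 first arrays alone, Pmvk (1.03 and 1.39) differed by less than Mvk (1.50 and 2.16). Pmvk, which adds the second phosphate, gave 1.03, 0.19, 1.39 and 1.41, a mean of 1.004 ± 0.56 (SD, n = 2, adjusted p = 0.0122, limma). Mvd, which releases the isoprenoid unit by decarboxylation, gave 1.24, 0.29, 2.05 and 1.91, a mean of 1.37 ± 0.86 (SD, n = 2, adjusted p = 0.0126, limma). Both genes were higher on every array, and in both the dye swap of replicate 1 stood far below the other 3 arrays. Without the first array of replicate 1, Pmvk was no longer called, at 0.79 (adjusted p = 0.123, limma). Of the 15 alternatives that tested both genes, Pmvk was called in 11 and Mvd in 14. Fdps, which builds farnesyl pyrophosphate, gave 1.37, 0.38, 1.77 and 1.93 and was 2.58-fold higher, at 1.37 ± 0.69 (SD, n = 2, adjusted p = 0.00719, limma). A second Fdps probe, designed on another transcript record, read only 0.26, with ratios of both signs over the arrays.

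The other 3 genes of this stretch were not called. Acat2, the thiolase that makes acetoacetyl-CoA, had 0.18, 0.46 and 0.55 on 3 arrays and a mean of 0.34 (adjusted p = 0.0969, limma), and whether its probe also reads its close paralog was not tested. Idi1, the isomerase that converts between the isoprenoid units, had 0.25, 0.13, 0.58 and 0.87, all above 0 (adjusted p = 0.0690, limma), although the array's annotation places both of its probes on chromosome 2 and RefSeq places the gene on chromosome 13. Ggps1, which makes geranylgeranyl pyrophosphate for protein prenylation and thus leaves the sterol route, had 0.095, 0.062 and 0.28, a mean of 0.13. Ggps1 showed the smallest ratio among the 19 enzymes (adjusted p = 0.412, limma).

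From squalene to cholesterol, 10 of 11 enzymes were called higher, with a median log2 ratio of 1.24. Fdft1, squalene synthase and the first enzyme committed to sterol, had log2 ratios of 1.99, 0.58, 2.39 and 2.09 on the 4 arrays. It was 3.39-fold higher, at 1.76 ± 0.67 (SD, n = 2, adjusted p = 0.00316, limma). Sqle, which adds the epoxide to squalene, gave 1.05, 0.48, 0.96 and 1.45 and 1.98-fold (adjusted p = 0.00483, limma). In both genes every array was above 0, although Sqle was no longer called without the first array of replicate 1, at 0.84 (adjusted p = 0.0951, limma). Lss, which closes the rings to give lanosterol, gave 1.99, 0.54, 2.29 and 2.24, a mean of 1.76 ± 0.71 (SD, n = 2) and a 3.39-fold difference (adjusted p = 0.00351, limma), so that Fdft1 and Lss, on either side of Sqle, had equal folds to 3 digits and Sqle a smaller one.

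Cyp51 and Msmo1, which remove methyl groups from lanosterol, had the largest mean ratios among the cholesterol enzymes, over the arrays with a value. Their partners Nsdhl and Hsd17b7 had the smallest among those called. Cyp51, the demethylase that acts first on lanosterol, had log2 ratios of 2.06, 2.14 and 2.21 on 3 arrays, nearly the same on each. It was 4.34-fold higher, at 2.12 ± 0.08 (SD, n = 2, adjusted p = 0.000635, limma), the largest mean ratio of the 33 genes. Msmo1 and Lss were averaged with the replicate 1 dye swap, where Cyp51 gave no value. With this array left out, Msmo1 (2.16) and Lss (2.13) were slightly above Cyp51 (2.12). The Cyp51 probe lies at chr5:4083236-4083295 (mm9, minus strand), and 2 further Cyp51 probes gave 1.75 and 1.01. Msmo1, the oxidase that removes the next methyl groups, had ratios of 2.13, 1.04, 2.32 and 2.07, and was 3.70-fold higher, at 1.89 ± 0.43 (SD, n = 2, adjusted p = 0.00124, limma). Msmo1 was higher on all 4 arrays and at least 2-fold higher on each of them. Of the partners of Msmo1, Nsdhl, the dehydrogenase, was at 0.57 ± 0.25 (SD, n = 2) and Hsd17b7, the keto reductase, at 0.51 ± 0.07 (SD, n = 2, adjusted p of 0.0224 and 0.0197, limma). Nsdhl was called in 10 of 15 alternatives that tested it, and not without the first array of replicate 1, at 0.46 (adjusted p = 0.476, limma). Hsd17b7 had no value there and was called in 10 of 13 alternatives that tested it, with ratios down to 0.22 and an adjusted p of up to 0.263 (limma, each array centred on its median).

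Tm7sf2, a reductase that acts on the product of Cyp51, gave 1.37, 0.54, 1.45 and 1.59, a 2.36-fold difference (adjusted p = 0.00342, limma). A second reductase for the same bond, Lbr, which is also the lamin B receptor of the nuclear envelope, went the other way, with -1.53, -0.998 and -0.87 on 3 arrays. Lbr was 2.35-fold lower under the Lgr5-GFP label, at -1.23 ± 0.42 (SD, n = 2, adjusted p = 0.00369, limma). The values of Tm7sf2 and Lbr did not overlap on any array, though the difference between them was not tested.

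Of the last steps, Ebp, the isomerase that shifts the ring double bond, gave 0.81, 0.024, 1.18 and 1.11 and was 1.72-fold higher (adjusted p = 0.0233, limma). Sc5d, the desaturase that follows, gave 1.72, 0.70, 1.61 and 1.64 and was 2.67-fold higher, at 1.42 ± 0.29 (SD, n = 2, adjusted p = 0.00168, limma). Ebp was close to 0 on the dye swap of replicate 1, whereas Sc5d was above 0 on each array. Ebp was called in 10 of 15 alternatives that tested it, and not without the first array of replicate 1, at 0.59 (adjusted p = 0.308, limma). Dhcr7, the reductase that yields cholesterol, had 0.66, -0.23, 0.60 and 0.30, and with a value below 0 on the dye swap of replicate 1 it was not called (mean 0.33, adjusted p = 0.0876, limma). Of the 19 cholesterol enzymes 18 had ratios above 0 on every array with a value, and Dhcr7 was the exception. Without the dye swap of replicate 1, Dhcr7 and Idi1 were also called higher, which made 17 of 19.

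**Figure D2:**
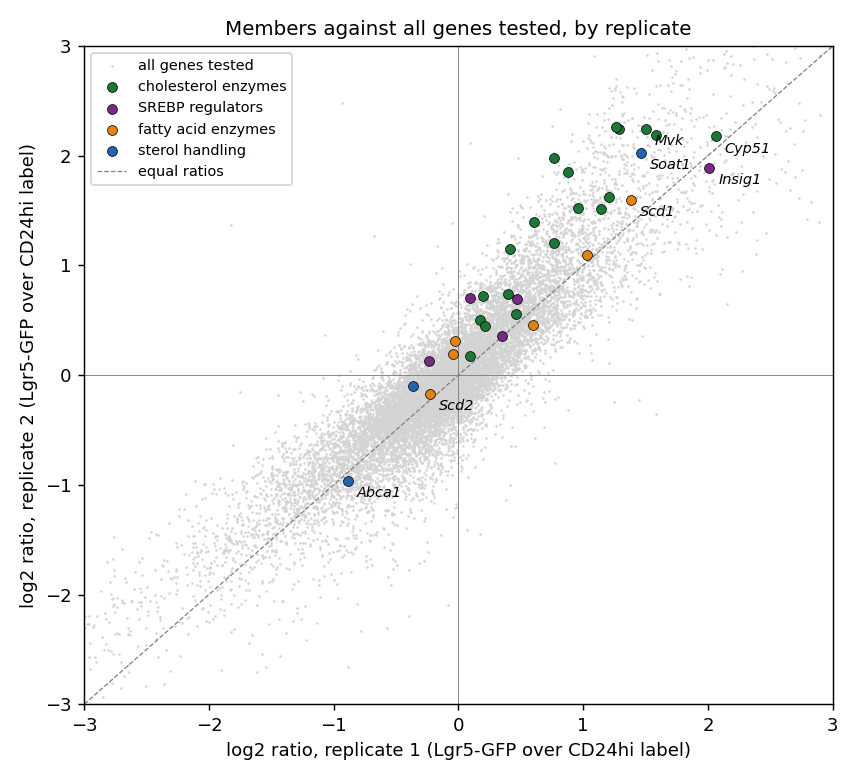
Log2 ratio in replicate 1 (horizontal axis) against replicate 2 (vertical axis) for all genes tested (grey) and for the 33 genes, coloured by step, with genes beyond the axis limits not drawn. The 19 cholesterol enzymes lie above the dashed line of equal ratios, and Abca1 lies in the lower left. Cyp51 is nearest to that line among the cholesterol enzymes of large ratio, but has no value on the dye swap of replicate 1.

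Among the regulators, the 2 Insig genes were called higher and the genes of the SREBP factors and of Scap were not. Insig1, which holds Scap in the endoplasmic reticulum and is itself a target of SREBP, had log2 ratios of 2.01, 1.83 and 1.94 on 3 arrays. It was 3.87-fold higher, at 1.95 ± 0.09 (SD, n = 2, adjusted p = 0.000672, limma), with no overlap between its values and 0. Its probe lies at chr5:28404246-28404305 (mm9, plus strand). A second Insig1 probe read 0.87, and without the first array of replicate 1 this dimmer probe stood for the gene, at 0.64 with an adjusted p of 0.252 (limma). Insig2, the sister gene with the same role, gave 0.63, 0.30, 0.42 and 0.98, a 1.50-fold difference (adjusted p = 0.0160, limma). It too was not called without that array, at 0.50 (adjusted p = 0.418, limma). Of the 15 alternatives that tested both genes, Insig1 was called in 12 and Insig2 in 9.

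Srebf2, whose product mainly drives cholesterol genes, had 0.42, -0.23, 0.73 and 0.67, higher on 3 arrays and lower on the dye swap of replicate 1 (mean 0.40, SD 0.43, n = 2, adjusted p = 0.118, limma). Srebf1, whose product mainly drives fatty acid genes, had 0.26, -0.73, 0.12 and 0.13, with the same array apart from the rest (mean -0.053, SD 0.26, n = 2, adjusted p = 0.789, limma). Scap had 0.35, 0.43 and 0.28 on 3 arrays, all above 0 (adjusted p = 0.0594, limma). These are levels of RNA, and cleavage of the SREBP proteins was not measured. Without the dye swap of replicate 1, Srebf2 and Scap were called higher, at 0.56 and 0.35 (adjusted p of 0.00599 and 0.0267, limma), and Srebf1 stood at 0.19 and was not called (adjusted p = 0.174, limma).

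Fatty acid synthesis did not move as 1 block. Its median log2 ratio was 0.33, with 3 of 6 genes called higher and the core enzymes among those not called. The 3 called, Acly, Elovl6 and Scd1, have no value on the dye swap of replicate 1, whereas Acaca, Fasn and Scd2 do. Without that array 4 of the 6 were called higher, while Acaca stood at -0.0011 and Scd2 at -0.0395, not called. Acly, which splits citrate to supply the acetyl-CoA of both pathways, had 1.03, 1.20 and 0.997 on 3 arrays and was 2.09-fold higher, at 1.06 ± 0.05 (SD, n = 2, adjusted p = 0.00206, limma). It was called in 12 of 13 alternatives that tested it. Acaca, which makes malonyl-CoA, had -0.19, 0.10, 0.21 and 0.17, on either side of 0 (adjusted p = 0.688, limma). Fasn, the fatty acid synthase, had 0.33, -0.39, 0.24 and 0.38, with 3 arrays a little above 0 and the dye swap of replicate 1 below it (adjusted p = 0.454, limma). Without that dye swap Fasn was called higher, at 0.32 (adjusted p = 0.0386, limma).

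The enzymes that lengthen and desaturate the new fatty acid differed from each other. Elovl6, an elongase of saturated chains, had 0.60, 0.67 and 0.24 on 3 arrays, a 1.44-fold difference (adjusted p = 0.0187, limma). Its lowest array was the dye swap of replicate 2, and without the first array of replicate 2 it was not called, at 0.42 (adjusted p = 0.0598, limma). Elovl6 was called in 8 of 13 alternatives that tested it, with ratios down to 0.23 and an adjusted p of up to 0.234 (limma, each array centred on its median). Scd1, a desaturase that makes monounsaturated fatty acids, had 1.38, 1.58 and 1.61 on 3 arrays and was 2.81-fold higher, at 1.49 ± 0.15 (SD, n = 2, adjusted p = 0.00104, limma). Its paralog Scd2, with the same reaction, had 0.092, -0.55, -0.15 and -0.19, which lay on both sides of 0 (mean -0.20, SD 0.04, n = 2, adjusted p = 0.227, limma). The lowest array of Scd1 was above the highest of Scd2, and the difference between the paralogs was not tested. The Scd1 probe lies at chr19:44469387-44469446 and the Scd2 probe at chr19:44381024-44381083, on the minus and the plus strand of mm9.

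Genes that store or export sterol went in opposite directions. Soat1, which esterifies cholesterol for storage in droplets, had log2 ratios of 2.12, 0.80, 2.16 and 1.89 and was 3.35-fold higher, at 1.74 ± 0.40 (SD, n = 2, adjusted p = 0.00137, limma). All 4 arrays put it higher, and 2 further Soat1 probes read 0.73 and 1.25. Abca1, which exports cholesterol to lipoprotein particles, had -0.89, -0.78 and -1.14 on 3 arrays and was 1.90-fold lower under the Lgr5-GFP label, at -0.92 ± 0.05 (SD, n = 2, adjusted p = 0.00303, limma). Under the Lgr5-GFP label the Abca1 probe (chr4:53043944-53044003, mm9, minus strand) was well above background on 1 of the 3 arrays with a value, against 3 of 3 under the CD24hi label, so that the size of its ratio is uncertain. It was -2.52 from signals processed by the scanner software and -2.51 in the deposited series table, and the call was lost with outlier spots kept or with non-uniform backgrounds kept, at -0.70 and -0.73 (adjusted p of 0.0547 and 0.0541, limma).

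Stard4, which carries sterol between membranes, was not called and its probes disagreed. The probe that stands for it, the brightest, gave -0.42, -0.32, -0.20 and 0.0074 (mean -0.23, SD 0.19, n = 2, adjusted p = 0.205, limma), while 2 other probes gave 0.30 and 0.29. Among the 19 genes with at least 2 measured probes, Stard4 and Acaca had probes of both signs, and in all 12 called genes among them the probes shared 1 sign. In 7 of those 12 the brightest probe, which stands for the gene, also had the largest ratio.

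**Figure D3:**
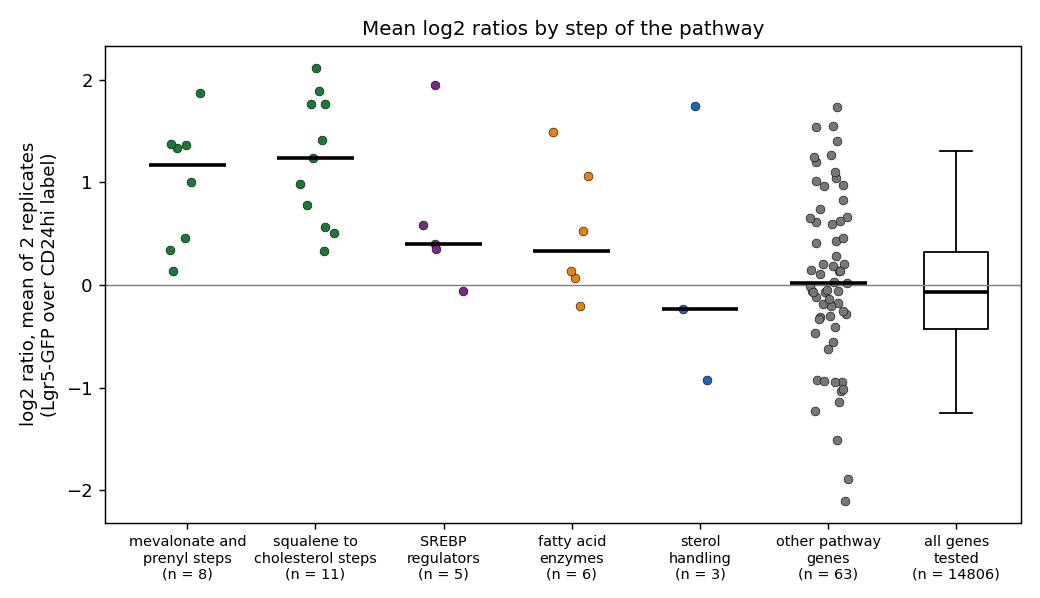
Mean log2 ratio of each gene (vertical axis, Lgr5-GFP label over CD24hi label) by step, with black lines at the medians; the box for all genes tested spans the quartiles and its whiskers the percentiles 5 and 95. The medians run from 1.24 for the squalene to cholesterol steps through 0.40 for regulators and 0.33 for fatty acid enzymes to -0.23 for sterol handling, with other pathway genes at 0.02 and all genes tested at -0.07.

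In fold terms, 15 of the 33 genes were at least 2-fold higher, 11 of them cholesterol enzymes, where 1203 of all 14806 genes tested were. In both replicates taken singly, 7 of the 19 cholesterol enzymes passed 2-fold, beside 874 of the 14806 genes tested. The genes called under every alternative processing that could test them were 11: Hmgcs1, Mvk, Fdps, Fdft1, Lss, Cyp51, Tm7sf2, Msmo1, Sc5d, Scd1 and Soat1. Of these, Mvk, Cyp51 and Scd1 had no value on the dye swap of replicate 1 and were tested in 13 alternatives, the rest in 15. These 3 genes were thus not tested without the first array of replicate 1 or on dye swaps only. For the 11 genes, the largest adjusted p over the alternatives ran from 0.0364 to 0.0466 (limma), near the threshold. With non-uniform backgrounds kept in the background fit, the smallest adjusted p of all genes tested was 0.0364 (limma).

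Other genes of lipid synthesis and transport were called in both directions. Of 76 other genes of sterol, isoprenoid and fatty acid metabolism, 63 were measured, 21 were higher, 15 were lower and 27 were not called, with a median log2 ratio of 0.02. These are 33.3% higher and 23.8% lower, beside the 21.7% and 25.5% of all genes tested. Among the higher ones, Nceh1, which hydrolyses the cholesterol esters that Soat1 makes, had 2.55, 1.04, 1.67 and 1.67 and was 3.32-fold higher, at 1.73 ± 0.09 (SD, n = 2, adjusted p = 0.000772, limma). Soat1 and Nceh1, which catalyse opposite reactions, were both higher on all 4 arrays. Nus1, a subunit of the enzyme that makes dolichol from isoprenoid units, had 1.58, 1.82 and 1.21 on 3 arrays (mean 1.55, SD 0.05, n = 2, adjusted p = 0.000889, limma). Dhdds, the other subunit of that enzyme and named after its value was seen, was not called, at 0.19 ± 0.22 (SD, n = 2, adjusted p = 0.309, limma). Tmem97, a sterol-regulated membrane protein that binds the cholesterol transporter of lysosomes, had 1.34, 0.44, 1.95 and 1.89, above 0 on each array (mean 1.40, SD 0.73, n = 2, adjusted p = 0.00759, limma). Agpat2, an acyltransferase on the way to triglyceride, was 2.41-fold higher (adjusted p = 0.00129, limma).

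Sugar-responsive control of fat synthesis gave opposite ratios for a pair of partners. Mlxipl, the carbohydrate-responsive factor that acts on fatty acid genes, had -2.41, -0.68, -2.84 and -2.49 and was 4.30-fold lower, at -2.10 ± 0.79 (SD, n = 2, adjusted p = 0.00275, limma). Mlx, the protein it pairs with to bind DNA, had 1.60, 0.61, 2.08 and 1.86 and was 2.91-fold higher, at 1.54 ± 0.61 (SD, n = 2, adjusted p = 0.00382, limma). Each gene kept 1 sign on all 4 arrays.

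The Fads genes, a desaturase family distinct from Scd1, were lower. Fads1, which acts on polyunsaturated fatty acids, had -2.03, -0.81 and -1.17 on 3 arrays and was 2.85-fold lower, at -1.51 ± 0.74 (SD, n = 2, adjusted p = 0.00614, limma). Fads2 and Fads3, named after their values were seen, were lower too, at -0.92 ± 0.14 (SD, n = 2) and -0.94 ± 0.21 (SD, n = 2, adjusted p of 0.00343 and 0.00394, limma). Pdss1, which makes the isoprenoid tail of coenzyme Q, was 3.71-fold lower, with -1.99, -1.74 and -1.84 on 3 arrays (adjusted p = 0.000730, limma). Plin2, a coat protein of lipid droplets, had -1.20, -0.95 and -1.23 on 3 arrays and was 2.21-fold lower (adjusted p = 0.00176, limma), while the esterifying Soat1 was higher. Of the sterol-sensing nuclear receptors that switch on Abca1, also named after their values were seen, Nr1h3 was lower, at -1.01 ± 0.28 (SD, n = 2), and Nr1h2 was higher, at 0.61 ± 0.38 (SD, n = 2, adjusted p of 0.00396 and 0.0299, limma).

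**Figure D4:**
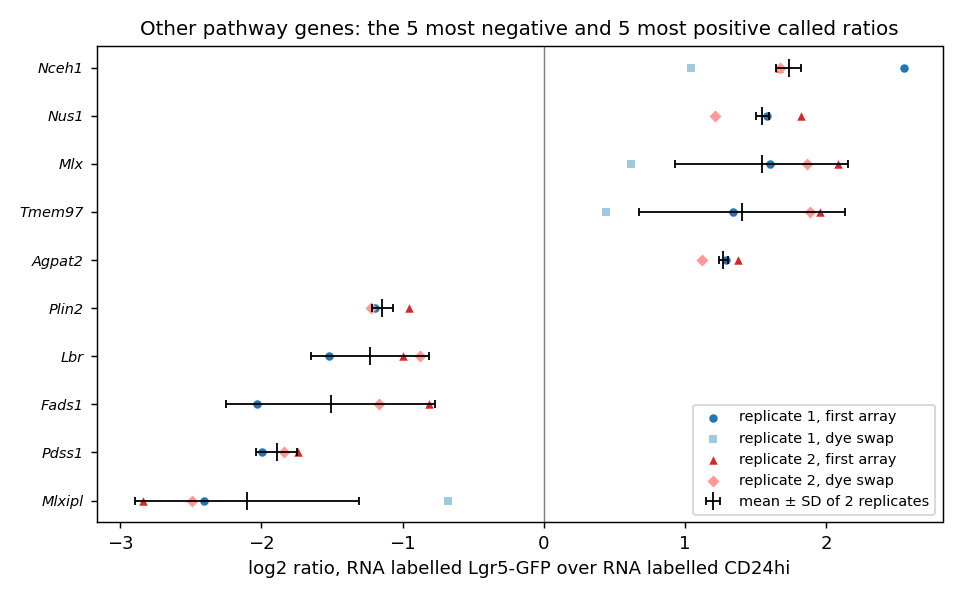
Log2 ratios (horizontal axis, Lgr5-GFP label over CD24hi label) of the other pathway genes with the 5 largest and 5 lowest called ratios, on each array, with the black mark and bar giving the mean and SD of 2 replicates. The arrays of each gene lie on 1 side of 0, from -2.10 for Mlxipl to 1.73 for Nceh1 in the mean.

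Fat cells, which also make these lipids, were looked for through 8 of their markers. Of these, 5 did not pass the filter on dim probes, and for 2 of the 8 no probe was above background on any array with a value. Plin4 and Cidec were measured at -0.0041 and -0.082 and not called. Cidea was called higher, by at least 1.71-fold (adjusted p = 0.0123, limma), which is also its measured fold. The fold is given as a bound because the Cidea probe was well above background on 0 of the 3 arrays with a value under the CD24hi label. Under the Lgr5-GFP label it was so on 3 of 3. Cidea thus passed the filter only through the label where it is higher, and its call is not independent of that filter.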

How the data were processed

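RNA of both sorted populations was amplified, labelled with Cy3 or Cy5 and hybridised to 4 Agilent 2-colour arrays, 2 replicates with a dye swap each. The deposited intensity values, read with Feature Extraction 10.5.1.1 per the file headers, were the mean signal of each spot and its median local background, not normalized. The deposited log10 ratio in the same files, and the processed intensity values behind it, were background-subtracted and dye-normalized per the file headers. The deposited series table was taken as a log2 ratio of red over green because it tracked that log10 ratio (r of 0.923 to 0.986, slopes of 2.91 to 3.30). The sources used here do not give its normalization, and it served as an alternative only.

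Spots with a non-uniform local background were left out before background correction (normexp, offset 50), outlier and control spots after it. Ratios were normalized by loess within each array, turned to the Lgr5-GFP label over the CD24hi label, and averaged over an array and its swap, so that 11 of the 33 genes rest in replicate 1 on the first array alone. Probes well above background on all arrays with a value in at least 1 population were kept (60 of 67 probes of the 33 genes), and the brightest stood for its gene. No spot was saturated. limma 3.58.1 in R 4.3.3 was fitted to the 2 replicate ratios, with 1 residual and 4.5 prior degrees of freedom, after a test on simulated data, and a gene was called at a Benjamini-Hochberg adjusted p under 0.05 over 14806 genes. The number of arrays limits the precision. Probes were named through RefSeq (27041 of 43379 spots) or else by the file's name, with probe positions in mm9 from the files. The offset shrinks ratios of dim probes. The genes and lists were chosen with earlier results of these data known. The text names all 33 genes, Lgr5, Cd24a, Muc2, Mki67 and, of the other pathway genes, the 5 called with the largest ratio in each direction. Fads2, Fads3, Nr1h2, Nr1h3, Dhdds, Slc25a1, Acacb, Tff3, Zg16, Fcgbp, Krt8, Plin4, Cidec and Cidea were named in addition, after their values were seen. Alternatives changed the background correction, outlier spots, normalization, filter, probe choice and arrays used.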

Additional observations from a re-analysis of the deposited data

Results flagged for a closer look

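Of the 22 genes with a value on all 4 arrays, 2 had 1 array far from the other 3 by Dixon's criterion, which chance meets in about 1 of 20 groups. Sc5d read 0.70 on the dye swap of replicate 1, against 1.61 to 1.72 on the other arrays. Srebf1 read -0.73 on the same dye swap, against 0.12 to 0.26 on the others.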

How the results depend on the processing

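The cholesterol enzymes kept a positive median under every alternative run, and the count of them called higher ran from 8 of the 14 with a value (without the first array of replicate 1) to 17 of 19. With non-uniform backgrounds kept in the background fit, 1408 genes in all, 13 of the 33 higher, 0 lower and 9 other pathway genes were called, and with outlier spots kept 3730, 15, 0 and 23. On dye swaps only, 969 genes were called among 6023, with 10 higher and 0 lower of the 23 that had a value among the 33, and 5 other pathway genes. With the filter set on both populations 0 of the 33 were lower, Abca1 being left out. Leaving out 1 array gave 983 to 8549 genes called, 9 (of 23 with a value) to 26 (of 33) higher, 0 to 1 lower and 7 to 43 other pathway genes. With a whole replicate left out no test was possible, for lack of residual degrees of freedom. Centring on the median moved the median of all genes from -0.07 to -0.25 and the higher share of calls from 45.9% to 29.0%, and the series table moved them to -0.18 and 39.4%. Relative to the median of all genes, the cholesterol enzymes stood at 1.30, 1.38 and 1.29 in these 3 settings.

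The median of the fatty acid enzymes was 0.19 with non-uniform backgrounds kept, 0.22 with outlier spots kept, 0.15 after centring, 0.41 over all kept probes, 0.46 on first arrays only and -0.0022 on dye swaps only, and -0.038 to 0.42 with an array or replicate left out. On dye swaps only and without the first array of replicate 1, that median rests on 3 of the 6 enzymes, Acaca, Fasn and Scd2. Acly, Elovl6 and Scd1, the enzymes called higher, had no value in these settings. The median of sterol handling turned to 0.75 with the filter on both populations, 0.27 over all kept probes and 0.60 on dye swaps only. It ran from -0.37 to 0.60 when an array or replicate was left out, and that of the regulators then ran from 0.35 to 0.70. With the filter on both populations, on dye swaps only and without the first array of replicate 1, Abca1 dropped out. The sterol handling median there rests on 2 of the 3 genes, Soat1 and Stard4. Genes that were not called changed sign in places: Acaca was at -0.0004 in the series table, -0.13 with outlier spots kept, -0.11 after centring, -0.064 over all kept probes, -0.0011 without the replicate 1 dye swap and -0.045 without replicate 2. Ggps1 was at -0.16 after centring and Stard4 at 0.27 over all kept probes. Fasn was at -0.0022 on dye swaps only, and at -0.038 to 0.32 with an array or replicate left out (-0.031 without replicate 2), and Srebf1 at 0.19 on first arrays only, 0.13 without replicate 1 and -0.30 to 0.19 with an array left out. The cause of these changes of sign in single genes was not tested. The dim signal of Abca1 in the RNA labelled Lgr5-GFP limits its fold.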

Other observations

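Outside the 33 genes, Slc25a1 and Acacb were picked after their values were seen. Slc25a1, which brings out of mitochondria the citrate that Acly splits, had 1.44, 0.36, 1.74 and 1.45 on the 4 arrays, a 2.38-fold difference (adjusted p = 0.00459, limma). Acacb, the mitochondrial carboxylase whose malonyl-CoA limits fatty acid oxidation, had 1.45, 0.97 and 0.92 on 3 arrays and was 2.29-fold higher (adjusted p = 0.00319, limma), where its cytosolic counterpart Acaca was not called.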
